A study of Rattus norvegicus with 19 samples.

Results

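The 8 genes described here are immediate early genes of neuronal activity: Fos (ENSRNOG00000008015), Junb (ENSRNOG00000042838), Egr1 (ENSRNOG00000019422), Egr2 (ENSRNOG00000000640), Nr4a1 (ENSRNOG00000007607), Npas4 (ENSRNOG00000020009), Arc (ENSRNOG00000043465) and Dusp1 (ENSRNOG00000003977). They were taken by these Ensembl IDs from a table of 32883 gene IDs, and all 8 were among the 15372 IDs with enough counts to be tested. The symbols come from the list that defines the set; the deposited table gives IDs without names, and no annotation used here pairs or contradicts them. RNA from the amygdala, a region of the temporal lobe that handles fear and anxiety, was sequenced in 19 female Wistar rats that differed in what their fathers had gone through. Daughters of ELS-HFD fathers (n = 5) had fathers exposed to both early life stress (ELS, separation from the mother) and a high-fat diet (HFD). Daughters of ELS fathers (n = 5), of HFD fathers (n = 4) and of control fathers (n = 5) completed the design. The daughters themselves, in every group, ate chow, and all went through an elevated plus maze, a test of anxiety-like behaviour, around postnatal day 57. The sample labels name brain tissue and females, whereas the text of the series names the amygdala and males; the labels were followed for sex. No source used here gives the interval between the maze and tissue collection, or which daughters share a litter or father. The p-values therefore reflect animal-to-animal spread, part of which may be shared within litters. Daughters that share a litter or father are not independent, and the p-values may then be too small.

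Immediate early genes are transcribed within minutes of a stimulus, without new protein being made first, and their messages decay quickly. In neurons, calcium entry and growth factor signals activate the transcription factors SRF and CREB, which bind CArG boxes and cAMP response elements (CREs) close to these genes. Fos and Junb encode partners in the dimeric transcription factor AP-1, Egr1 and Egr2 encode zinc finger transcription factors, Nr4a1 encodes an orphan nuclear receptor, and Npas4 encodes a factor of the bHLH-PAS family that is induced mainly by calcium entry in neurons. Arc encodes a protein that regulates AMPA receptor trafficking at synapses, and Dusp1 encodes a phosphatase that switches off MAP kinases. In the amygdala, Fos, Egr1 and Arc are widely used as markers of neurons that were recently active.

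The starts of 6 of the 8 genes were found by symbol in RefSeq promoter sequences (rat build GRCr8, from 250 bases before to 50 bases after the gene start); Fos and Arc are named only. The sequences of 4 are shown because they hold the CArG boxes or the most CRE motifs found in these 6 promoters. Capitals mark CArG boxes and the CRE core TGACG, or its reverse CGTCA, searched on both strands. The full CRE TGACGTCA contains the core on each strand, so the matches overlap.
Egr1, chr18:26736828-26737127, plus strand: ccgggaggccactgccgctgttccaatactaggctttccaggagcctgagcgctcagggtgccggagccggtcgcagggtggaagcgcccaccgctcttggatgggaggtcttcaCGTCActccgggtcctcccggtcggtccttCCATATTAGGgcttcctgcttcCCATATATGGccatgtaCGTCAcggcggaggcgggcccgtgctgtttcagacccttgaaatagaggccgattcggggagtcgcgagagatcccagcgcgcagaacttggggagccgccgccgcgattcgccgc
Egr2, chr20:21054392-21054691, minus strand: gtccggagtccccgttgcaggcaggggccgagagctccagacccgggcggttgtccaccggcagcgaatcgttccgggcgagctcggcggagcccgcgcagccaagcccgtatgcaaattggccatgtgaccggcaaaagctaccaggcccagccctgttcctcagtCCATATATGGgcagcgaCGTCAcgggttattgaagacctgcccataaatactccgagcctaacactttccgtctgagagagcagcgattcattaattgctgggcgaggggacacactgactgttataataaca
Nr4a1, chr7:134259888-134260187, plus strand: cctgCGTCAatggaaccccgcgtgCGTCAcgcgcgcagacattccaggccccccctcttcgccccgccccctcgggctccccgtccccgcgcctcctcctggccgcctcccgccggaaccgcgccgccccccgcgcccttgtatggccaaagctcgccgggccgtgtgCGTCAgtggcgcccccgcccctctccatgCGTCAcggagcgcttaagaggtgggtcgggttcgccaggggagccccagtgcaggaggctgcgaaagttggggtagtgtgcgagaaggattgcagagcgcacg
Dusp1, chr10:17184603-17184902, plus strand: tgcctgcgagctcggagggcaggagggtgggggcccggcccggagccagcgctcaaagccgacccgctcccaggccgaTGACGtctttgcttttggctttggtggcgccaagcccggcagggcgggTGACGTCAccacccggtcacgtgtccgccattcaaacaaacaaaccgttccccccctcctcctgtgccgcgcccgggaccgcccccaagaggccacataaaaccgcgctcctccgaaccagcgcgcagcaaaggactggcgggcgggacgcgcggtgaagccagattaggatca
Egr1 held 2 CArG boxes, at bases -105 to -96 and -83 to -74 from the start, and Egr2 held 1, at -83 to -74. The box at -83 had the letters CCATATATGG in both genes, and in both a CRE core followed at -66 to -62, after 7 other bases. Of 33469 RefSeq promoters of the same length, 4 held a CArG box at that distance from a CRE core, in either orientation. Egr1 and Egr2 are among them by construction, since the distance was read from these genes, so the count is not a test. A CArG box of any placement was present in 1.64% of the promoters and a CRE core in 21.2%. Nr4a1 held 4 CRE cores. Dusp1 held the full CRE at -124 to -117, present in 1.83% of promoters, and 1 further core at -172 to -168. Junb held 1 core at -155 to -151 and a TATAAA box at -49 to -44, a box found in 14.2% of promoters. Npas4 had no match, and none of the 6 promoters searched had the AP-1 site TGANTCA, found in 7.33%. A match describes letters only, and binding was not measured.

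**Figure D1:**
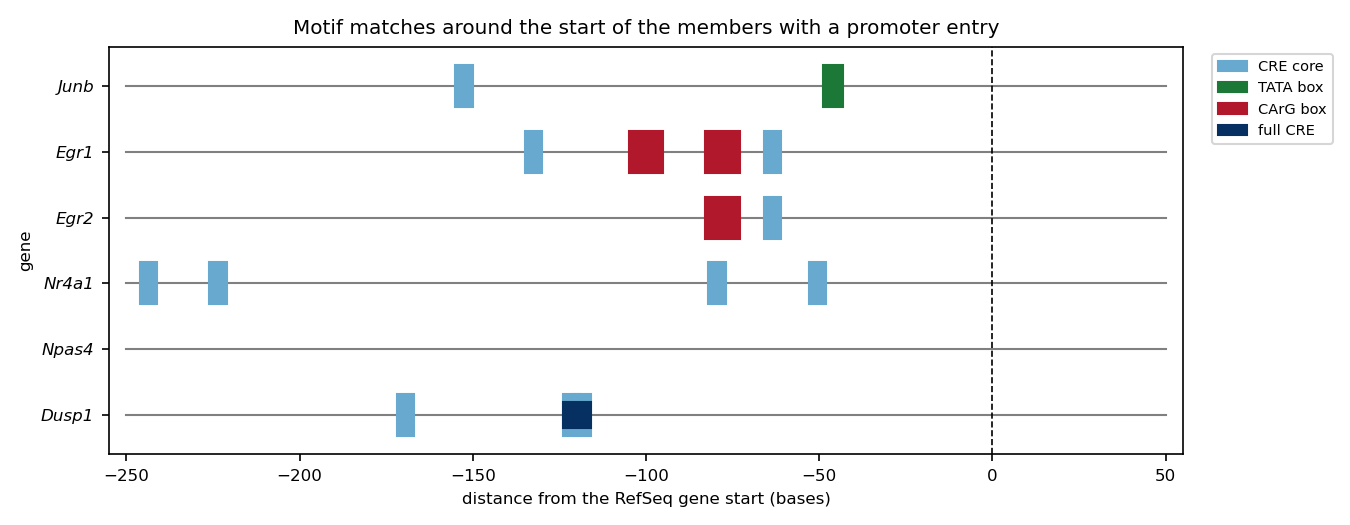
Motif matches in the RefSeq promoters of 6 members, drawn against distance from the gene start in bases (dashed line at the start; grey lines show the 300 bases searched). The Egr1 and Egr2 rows share a CArG box and a CRE core at the same positions, and the Npas4 row is empty.

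Each library held between 7034837 and 20266594 counts. Over the whole expression profile, HFD replicate 1 stood apart from the other 18 libraries. It scored 113.69 on the first principal component, against -29.02 to 49.23 in the others, and its TMM scaling factor was 0.772, against 0.984 to 1.068. ELS-HFD replicates 2 and 3 followed it on that component, at 49.23 and 47.82. Results that rest on HFD replicate 1 are therefore given with and without it. Levels below are in CPM, the counts of a gene per 1000000 counts of its library. They are not corrected for gene length, so they were compared between animals and not between genes.

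The members were detected in every animal. Counts per library ran from 38 for Npas4 in control replicate 2 to 3120 for Egr1 in HFD replicate 2. In HFD replicate 1, 7 of the 8 members were at their lowest level of the 19 animals. That library was also the lowest for 44.7% of all tested IDs. With TMM-scaled totals the count was 5 of 8 members, against 28.6% of tested IDs. The amount of RNA per cell and the number of cells of a type cannot be told apart in bulk tissue, and which cell types these samples held was not checked, since marker genes could not be matched to IDs.

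Fos was measured at 22, 19.2, 17.7, 24.8 and 26.1 CPM in ELS-HFD daughters and at 18.2, 22.6, 20.8, 16.1 and 21.5 CPM in ELS daughters. HFD daughters had 9.86, 27.1, 25.5 and 25.3 CPM of Fos, and control daughters had 22.1, 17.6, 24.3, 23.3 and 16.0 CPM. HFD replicate 1 was the lowest of all animals, while the other 3 HFD daughters lay above every control. Junb, its AP-1 partner, stood at 121, 107, 106, 94.9 and 135 CPM in ELS-HFD daughters and at 75.1, 129, 103, 72.7 and 93.1 CPM in ELS daughters. In HFD daughters Junb was at 54.6, 107, 115 and 114 CPM, and in control daughters at 97.7, 89.3, 124, 87.4 and 90.0 CPM. The groups overlapped in Junb: ELS replicates 1 and 4 were the next lowest after HFD replicate 1, and control replicate 3 was above every HFD daughter.

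Egr1 lay within a narrow range in ELS-HFD daughters, at 163, 166, 161, 163 and 160 CPM, and spread more widely in ELS daughters, at 169, 218, 209, 178 and 145 CPM. HFD daughters had 92.9, 215, 150 and 194 CPM of Egr1, and control daughters had 135, 156, 168, 188 and 183 CPM. Its SD was 2.21 CPM in ELS-HFD daughters, 30.1 in ELS, 54.0 in HFD (33.1 without replicate 1) and 21.3 in control daughters. With TMM-scaled totals the ELS-HFD daughters were at 166, 163, 164, 164 and 150 CPM, a wider range. Counting error alone was 2.05% to 2.93% of the Egr1 level in these libraries. A difference in spread was not tested. Egr2 had 15.6, 9.24, 10.5, 10.7 and 16.7 CPM in ELS-HFD daughters and 6.03, 10, 10.8, 5.32 and 8.09 CPM in ELS daughters. HFD daughters had 3.4, 10, 14.4 and 14.9 CPM of Egr2, against 13.3, 14.3, 20.5, 10.9 and 6.14 CPM in control daughters. ELS daughters were all at or below 10.8 CPM, a level that 4 of the 5 controls exceeded, but control replicate 5 lay among the ELS values. Control replicate 4 exceeded that level only narrowly, at 10.9 CPM. With TMM-scaled totals control replicate 4 and ELS replicate 3 were both at 10.7 CPM.

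Nr4a1 was at 57.8, 67.1, 68.9, 59.7 and 77.6 CPM in ELS-HFD daughters and at 51.1, 78.5, 72.3, 58.4 and 57 CPM in ELS daughters. HFD daughters had 30.3, 76.8, 64.8 and 65.1 CPM, and control daughters had 65.6, 58.3, 63.1, 61.9 and 42.5 CPM. All groups overlapped, with HFD replicate 1 and control replicate 5 at the low end. Npas4 was at 5.88, 5.97, 6.98, 13.2 and 8.73 CPM in ELS-HFD daughters and at 9.01, 9.87, 8.26, 8.02 and 13.2 CPM in ELS daughters. HFD daughters had 3.90, 13.7, 12.1 and 12.8 CPM of Npas4, against 7.50, 2.63, 5.81, 9.70 and 9.03 CPM in control daughters. Npas4 was the 1 member whose lowest value was not in HFD replicate 1 but in control replicate 2, and the other 3 HFD daughters lay above every control.

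Arc, the synaptic effector, was at 81.4, 79.3, 80.5, 89.3 and 101 CPM in ELS-HFD daughters and at 68.9, 123, 106, 68.2 and 94.4 CPM in ELS daughters. HFD daughters had 54.3, 119, 108 and 133 CPM of Arc, against 89.9, 64.3, 87.6, 85.0 and 67.2 CPM in control daughters. HFD replicates 2, 3 and 4 were above all controls and above all ELS-HFD daughters. Dusp1 was at 34.7, 38.5, 34.7, 37.2 and 51.1 CPM in ELS-HFD daughters and at 29.1, 36.5, 31.4, 29.2 and 42.8 CPM in ELS daughters. HFD daughters had 17.2, 42.8, 44.4 and 41.7 CPM of Dusp1, and control daughters had 34.0, 28.9, 37.1, 36.6 and 33.8 CPM. The highest Dusp1 level was that of ELS-HFD replicate 5, and HFD replicates 2, 3 and 4 again lay above all controls.

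**Figure D2:**
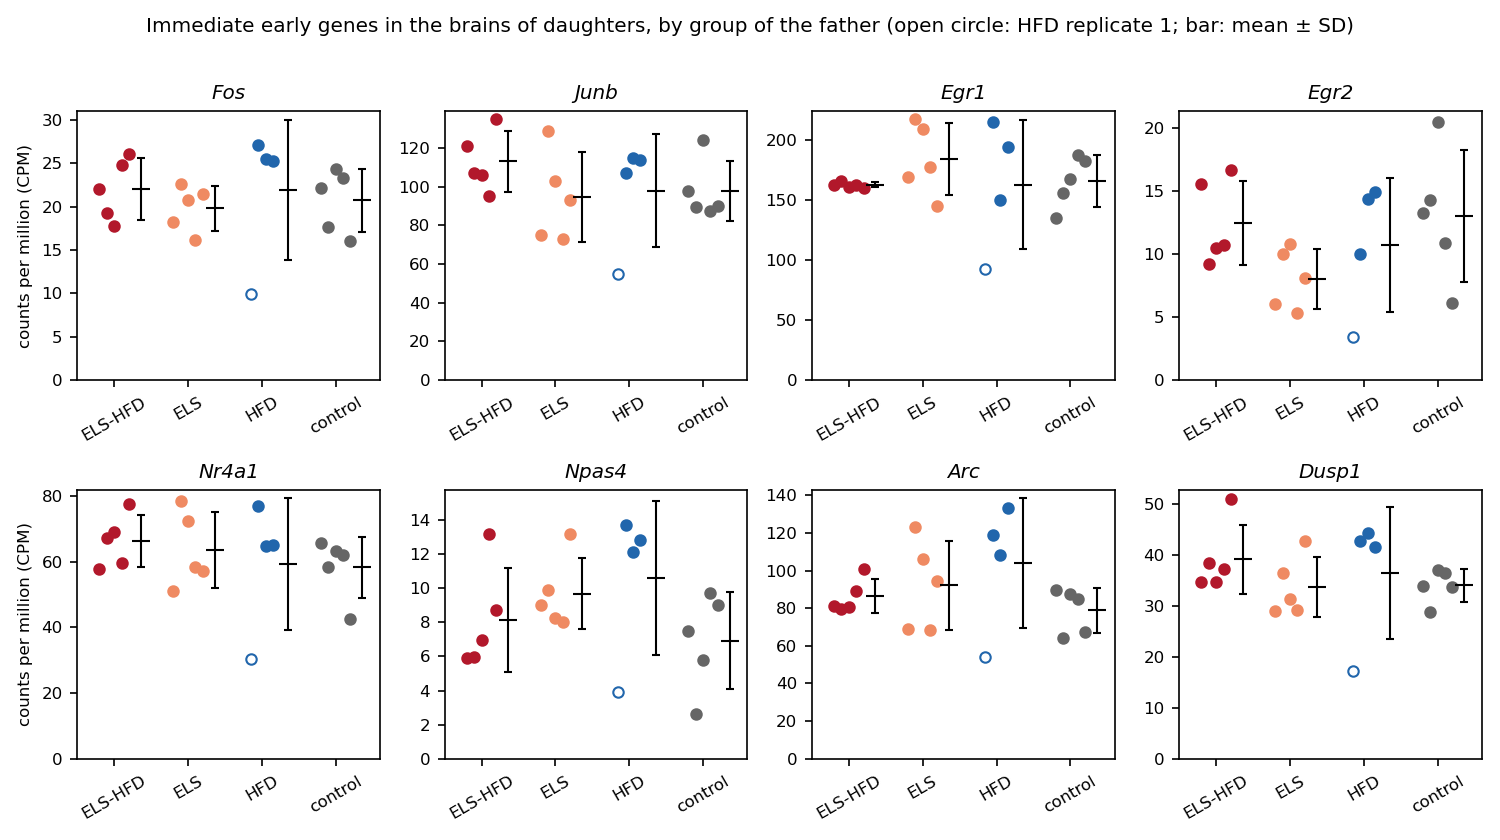
Level of each member in CPM in each daughter, by the group of the father (ELS-HFD, ELS, HFD, control), with the group mean ± SD as a black bar. The open circle is HFD replicate 1, the lowest animal in every panel except Npas4, where control replicate 2 is at 2.63 CPM.

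By group means, HFD daughters ranked highest for Npas4 (10.6 ± 4.52 CPM, SD, n = 4) and Arc (104 ± 34.5 CPM), and control daughters ranked lowest for both (6.93 ± 2.83 and 78.8 ± 12.1 CPM, n = 5). ELS-HFD daughters ranked highest for Fos, Junb, Nr4a1 and Dusp1, ELS daughters for Egr1, and control daughters for Egr2. ELS daughters ranked lowest for Fos, Junb, Egr2 and Dusp1. In all 24 pairs of neighbouring groups in these orders, the means were closer than the larger of the 2 SDs. HFD replicate 1 decided the top of this order: without it, HFD daughters ranked highest for 7 of 8 members, all but Junb. Egr1, lowest in HFD daughters with that library, then averaged 186 ± 33.1 CPM in HFD daughters, against 184 ± 30.1 CPM in ELS daughters, next in order. In that order the means of 20 of the 24 neighbouring pairs were closer than the larger SD. The other pairs were HFD above the next group for Fos, Arc and Npas4, and ELS below ELS-HFD for Egr2. Egr2 and Npas4 varied most between animals, with SDs of 0.57 and 0.54 on the scale of log2(CPM + 1), at the 89.4th and 87.3rd percentiles of all tested IDs. The other 6 members had SDs of 0.28 to 0.34, near the median of 0.29 over tested IDs. Counting error alone would give SDs of 0.03 to 0.14. Group membership took up 2.4% of the variance between animals in Fos and up to 20.7% in Egr2, against a median of 21.9% over tested IDs. Without HFD replicate 1 it took up 17.7% (Egr1) to 45.1% (Arc), against a median of 24.4%.

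The comparisons between groups ask whether a father's stress, his diet or both are followed by a different level of these genes in the daughters. With all 19 libraries, 0 of the 8 members had an adjusted p under 0.05 in any of 8 comparisons (edgeR's quasi-likelihood test, Benjamini-Hochberg adjustment over 15372 IDs). The same fit called 0% of all tested IDs in each comparison, and no member was called by limma-voom or DESeq2 either. At an unadjusted p under 0.05, edgeR had 1 member in HFD against control (7.79% of tested IDs) and 1 in ELS against control (4.35%). It had 0 in the other 6 comparisons, where the share of tested IDs ran from 2.49% to 24.3% and is given with each below.

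In HFD daughters against control daughters, 7 of 8 members had a log2 fold change above 0, with a median of 0.12 against 0.01 over all IDs tested. Arc was at 0.47 ± 0.19 (SE, edgeR, unadjusted p = 0.0228, adjusted p = 0.616), and 7.79% of tested IDs reached an unadjusted p under 0.05. The Arc estimate ran from 0.36 without HFD replicate 4 to 0.63 without HFD replicate 1. Its unadjusted p was under 0.05 in 15 of 19 fits that left out 1 library, and was not without HFD replicate 2 or 4 or control replicate 2 or 5, nor with column sums as library sizes. Npas4 was at 0.67 ± 0.33 (adjusted p = 0.616, edgeR), Fos at 0.15 ± 0.19, Dusp1 at 0.17 ± 0.17, and Egr2 at -0.24 ± 0.34. No member had all 4 HFD daughters above all controls, a pattern held by 0.325% of tested IDs.

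Without HFD replicate 1, the 3 remaining HFD daughters lay above all 5 controls for 4 of the 8 members, against 1.23% of tested IDs. These members were Fos, Arc, Npas4 and Dusp1. Without that library they had a Pearson's r of 0.50 to 0.80 with each other, so they are not 4 independent observations. The margin for Fos was within counting error. It was at 25.3 CPM in HFD replicate 4 and 24.3 CPM in control replicate 3, with counting errors of 6.26% and 4.99%. With TMM-scaled totals these were 24.9 and 24.7 CPM. Arc averaged 120 ± 12.3 CPM in those HFD daughters and 78.8 ± 12.1 CPM in control daughters (SD, n = 3 and 5). Npas4 averaged 12.9 ± 0.76 CPM in HFD and 6.93 ± 2.83 CPM in control daughters. Fos averaged 26.0 ± 1.01 CPM in HFD and 20.7 ± 3.66 CPM in control daughters. Dusp1 averaged 43.0 ± 1.36 CPM in HFD and 34.1 ± 3.26 CPM in control daughters. In the edgeR fit the log2 fold changes were 0.63 ± 0.17 for Arc, 0.91 ± 0.31 for Npas4, 0.35 ± 0.15 for Fos and 0.35 ± 0.13 for Dusp1. These 4 members had unadjusted edgeR p-values of 0.00175, 0.00897, 0.0332 and 0.0155 in that order. Of the 15547 IDs tested, 3.78% reached 0.05, and 1.33% did so with a higher level in HFD daughters. All 8 adjusted p-values were 1, so the differences did not pass the correction. The members' median log2 fold change was 0.30, and that of all IDs 0.0. The other members were at 0.22 ± 0.17 (Junb), 0.18 ± 0.14 (Egr1), 0.02 ± 0.31 (Egr2) and 0.26 ± 0.15 (Nr4a1), none with an unadjusted p under 0.05.

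**Figure D3:**
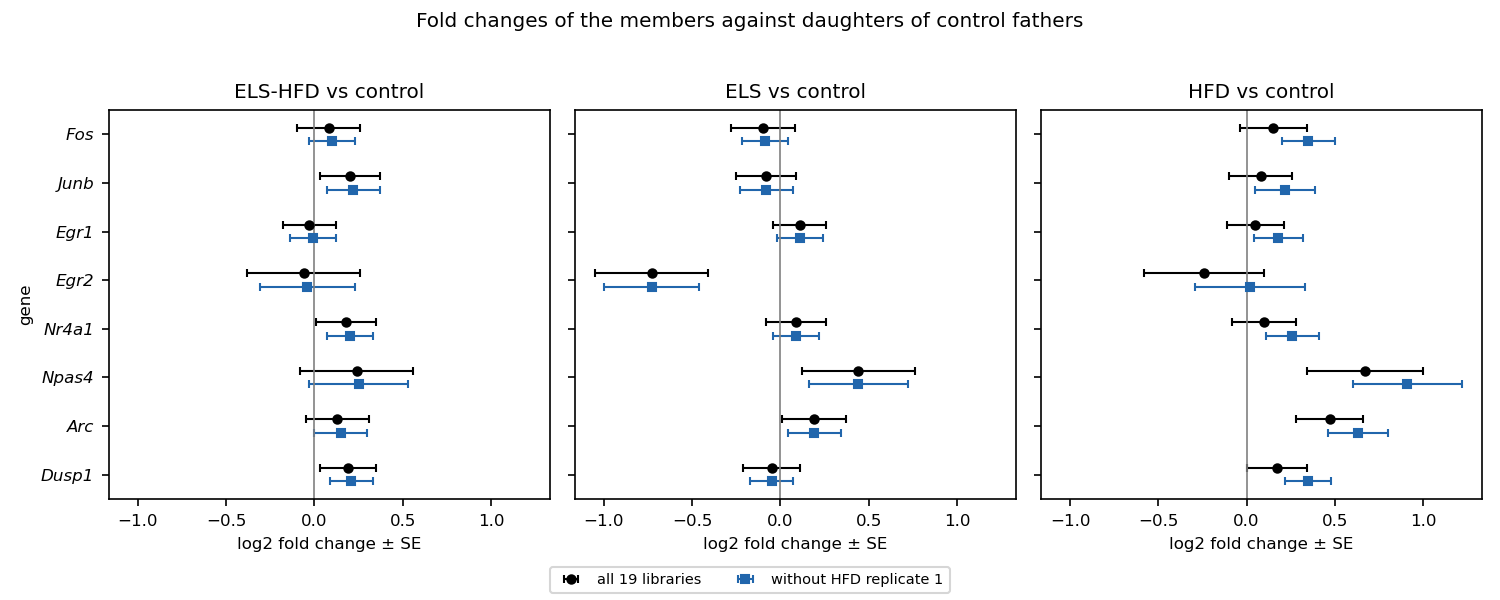
Log2 fold change ± SE of each member (edgeR) in ELS-HFD, ELS and HFD daughters against control daughters, with all 19 libraries (black circles) and without HFD replicate 1 (blue squares). In the HFD panel Arc moves to 0.63 and Npas4 to 0.91 without that library, and in the ELS panel Egr2 is at -0.73 in both fits.

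In ELS daughters against control daughters, the members split evenly, 4 above and 4 below a log2 fold change of 0. Egr2 averaged 8.04 ± 2.38 CPM in ELS daughters and 13.0 ± 5.24 CPM in control daughters (SD, n = 5 each). Its log2 fold change was -0.73 ± 0.32 (SE, edgeR, unadjusted p = 0.035, adjusted p = 0.913), where 4.35% of tested IDs reached an unadjusted p under 0.05. It was -0.50 without control replicate 3, the highest Egr2 library, and -0.91 without control replicate 5. Its unadjusted p was under 0.05 in 13 of 19 fits that left out 1 library, and was not without control replicate 1, 2 or 3 or ELS replicate 1, 4 or 5, nor with column sums as library sizes. The other 7 members ran from -0.10 for Fos to 0.44 ± 0.32 for Npas4. Egr2 and Npas4 thus had the largest estimates of the set, with opposite signs.

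In ELS-HFD daughters against control daughters, no member reached an unadjusted p under 0.05, as 4.18% of tested IDs did. The estimates ran from -0.06 ± 0.32 for Egr2 to 0.24 ± 0.32 for Npas4, with a median of 0.15 against 0.00 over all IDs. Against ELS daughters, ELS-HFD daughters had 0 of 8 members at that level, beside 19.8% of tested IDs. Egr2 had the largest estimate there, 0.67 ± 0.32 (edgeR adjusted p = 0.255), with 12.5 ± 3.34 CPM in ELS-HFD daughters and 8.04 ± 2.38 CPM in ELS daughters. Without HFD replicate 1, which is in neither group but enters the shared estimate of spread, Egr2 was at 0.69 (adjusted p = 0.0874, edgeR) and Dusp1 at 0.26 (adjusted p = 0.123). In that fit 2 of 8 members had an unadjusted p under 0.05, beside 33% of tested IDs. At an adjusted p under 0.05 there were 0 of 8 members, beside 15.5% of tested IDs.

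Against HFD daughters, ELS-HFD daughters also had 0 of 8 members at an unadjusted p under 0.05, beside 3.38% of tested IDs. Arc averaged 86.3 ± 9.11 CPM in ELS-HFD daughters, against 120 ± 12.3 CPM in HFD daughters without replicate 1, and these groups did not overlap. A lower level in all ELS-HFD than in all remaining HFD daughters was found for 1 of 8 members and for 1.17% of tested IDs. The log2 fold change of Arc was -0.34 ± 0.19 with all libraries and -0.48 ± 0.17 without HFD replicate 1 (edgeR adjusted p = 1 and 0.393).

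Averaged over early life, paternal HFD gave log2 differences of -0.05 (Egr1) to 0.24 (Npas4) and 0 of 8 members at an unadjusted p under 0.05, beside 24.3% of tested IDs. Without HFD replicate 1, Dusp1 was at 0.31 ± 0.09, Arc at 0.29 ± 0.11, Fos at 0.27 ± 0.10 and Junb at 0.26 ± 0.11. These members varied together between animals, so they are not 4 independent results. Those 4 of 8 members had an unadjusted p under 0.05, all with higher levels, against 16% of tested IDs in either direction and 8.55% with higher levels, and the lowest adjusted p was 0.183 (Dusp1, edgeR). Averaged over diet, paternal ELS gave differences of -0.28 ± 0.23 (Egr2) to 0.09 ± 0.12 (Nr4a1), 0 of 8 members at that level and 2.49% of tested IDs. The interaction asks whether the difference made by the father's diet depends on his early life. It was 0.92 ± 0.47 for Egr2, -0.87 ± 0.46 for Npas4 and -0.53 ± 0.26 for Arc, with adjusted edgeR p-values of 0.983, 0.997 and 0.969. No member reached an unadjusted p under 0.05 for the interaction, beside 5.13% of tested IDs. Without HFD replicate 1, Arc (-0.67 ± 0.23) and Npas4 (-1.09 ± 0.42) did, beside 20.2% of tested IDs, with adjusted edgeR p-values of 0.166 and 0.182.

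The members varied together between animals. Over the 28 pairs of members and 19 animals, Pearson's r of log2(CPM + 1) had a median of 0.68 and ran from 0.05 (Egr2 with Npas4) to 0.89 (Fos with Dusp1), and all 28 values were positive. By permutation of the animals, 23 of 28 had an adjusted p under 0.05 (100000 permutations, two-sided, Benjamini-Hochberg over 28). Spearman's rho had a median of 0.54, with 14 of 28 under that threshold. Over all pairs of tested IDs the median r was 0.08, and 16.5% of pairs had an r above 0.5, against 82.1% of the members' pairs. Without HFD replicate 1 the members' median r was 0.48, with a range of -0.25 to 0.80, and 13 of 28 pairs had an adjusted permutation p under 0.05 (11 of 28 by rho). In those 18 animals 46.4% of the members' pairs and 9.86% of all pairs had an r above 0.5. Each pair shares the library's total and composition. With TMM-scaled totals the median r was 0.63, and 0.50 without HFD replicate 1. On deviations from the group means it was 0.76, and 0.47 without HFD replicate 1. Without the 2 animals farthest from the median of the gene of each pair that is listed first in the opening it was 0.45.

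**Figure D4:**
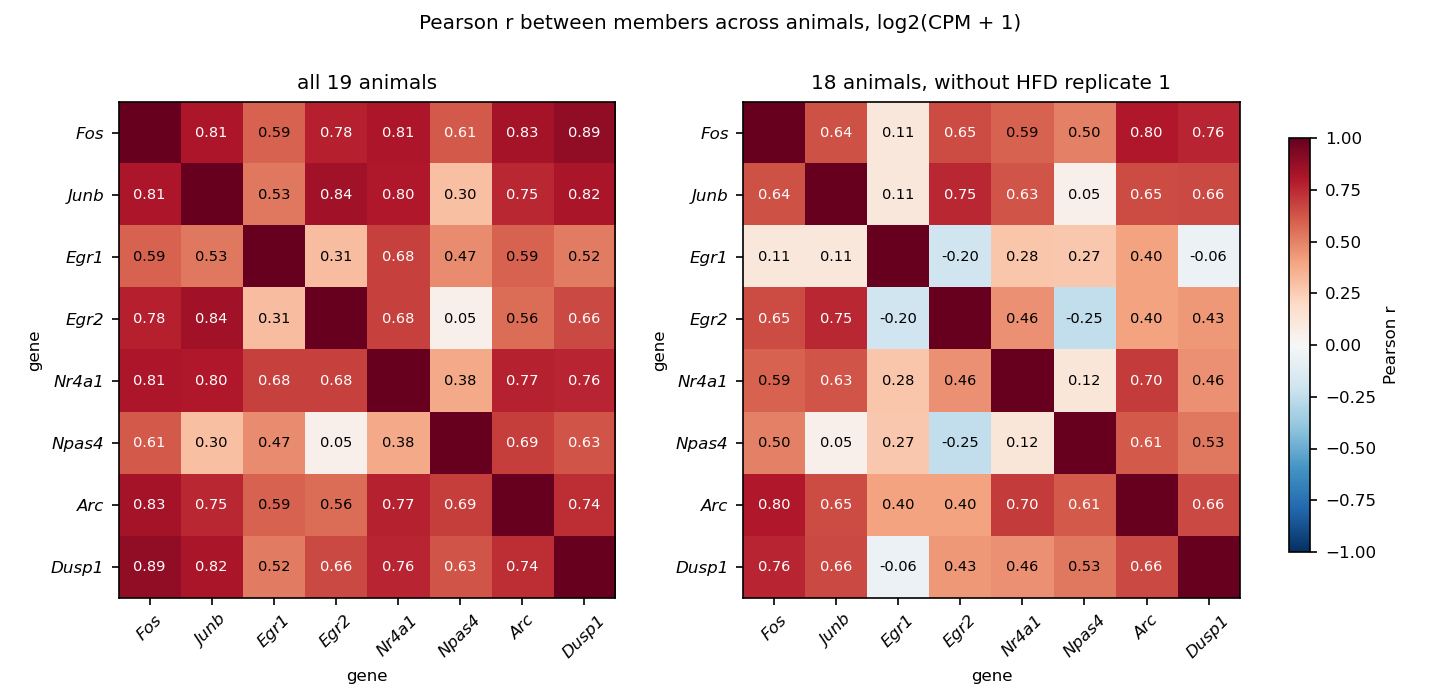
Pearson's r between members on log2(CPM + 1) over all 19 animals (left) and over 18 animals without HFD replicate 1 (right), on a colour scale from -1 to 1. Fos with Arc stays at 0.80 on the right, while the Egr1 row is between -0.20 and 0.40.

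Fos, Junb and Arc each passed the adjustment in 5 of their 7 pairs without HFD replicate 1, Dusp1 in 4, Nr4a1 in 3, Egr2 and Npas4 in 2 each, and Egr1 in 0. The 6 pairs among Fos, Junb, Arc and Dusp1 all passed. Egr2 passed with Fos and Junb, and not with Arc (adjusted permutation p = 0.144), Dusp1 (0.129) or Nr4a1 (0.0982). Fos with Arc had an r of 0.83 over 19 animals (rho = 0.83; permutation p = 1e-05 for each, the smallest that the permutations can give; adjusted p = 9.33e-05 and 0.00028) and 0.80 over 18 (rho = 0.80; permutation p = 0.00014 and 0.00024, adjusted p = 0.00378 and 0.00336). Without the 2 animals farthest from the median of Fos that r was 0.77. Fos with Dusp1 had an r of 0.89, and 0.76 without HFD replicate 1 (permutation p = 0.00027, adjusted p = 0.00378). Junb with Egr2 had an r of 0.84, and 0.75 without it (permutation p = 0.00043, adjusted p = 0.00401), and Nr4a1 with Arc 0.77, and 0.70 without it (permutation p = 0.00077, adjusted p = 0.00539). Fos, Arc and Junb had the highest median r with the other members in those 18 animals, 0.64, 0.65 and 0.64.

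The median r of Egr1 with the other members was 0.53 over 19 animals and 0.11 without HFD replicate 1. Egr1 with Fos had an r of 0.59 (rho = 0.20) over 19 animals and 0.11 over 18, so that relation rested on 1 library. None of the 7 pairs of Egr1 had an adjusted permutation p under 0.05 without that library. Egr1 with Egr2, whose promoters share the CArG box and CRE core described above, had an r of 0.31 (rho = -0.08), and -0.20 without HFD replicate 1. Npas4 with Arc had an r of 0.69, and 0.61 without HFD replicate 1 (permutation p = 0.00553, adjusted p = 0.0141). Npas4 with Dusp1 had an r of 0.63, and 0.53 without that library (adjusted permutation p = 0.0479, and 0.0642 by rho). On deviations from the group means without it, the r of Npas4 was 0.37 with Arc and 0.51 with Dusp1. Npas4 with Egr2 had an r of 0.05, and -0.25 without HFD replicate 1 (adjusted permutation p = 0.406).

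**Figure D5:**
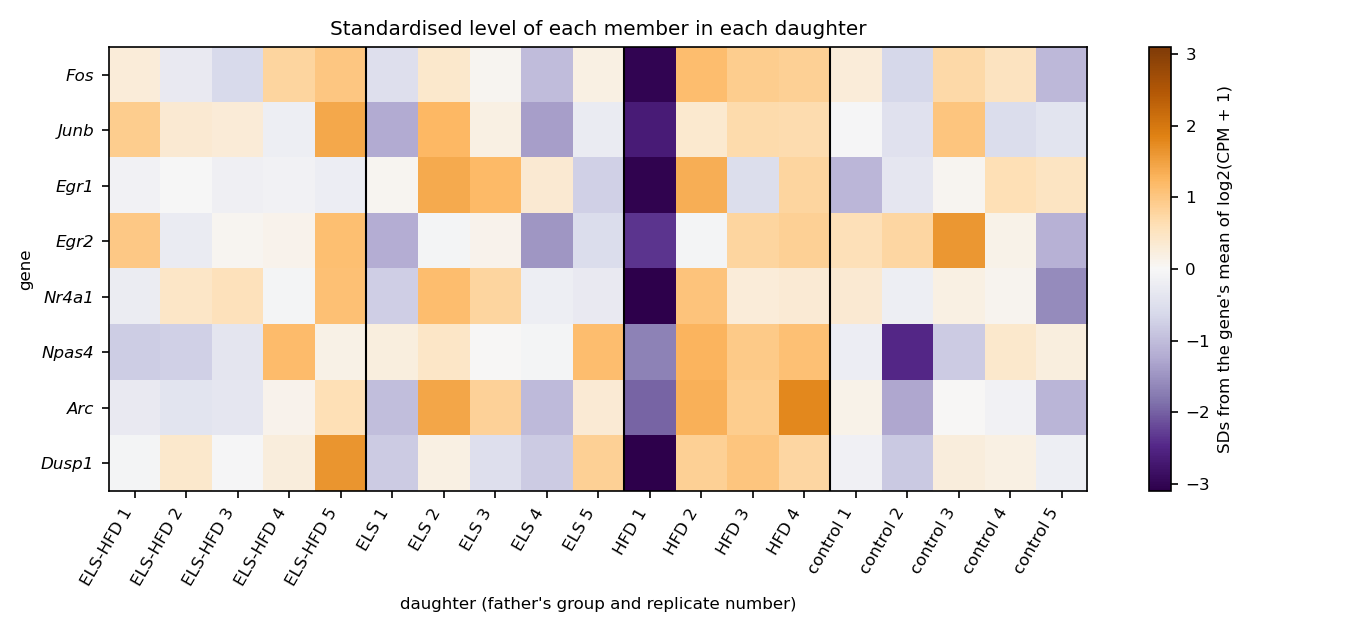
Each member's level in each daughter, as SDs from that gene's mean of log2(CPM + 1) over the 19 animals; columns are daughters, ordered ELS-HFD, ELS, HFD and control and divided by black lines. The HFD replicate 1 column is low for all 8 genes, HFD replicate 2 ranks high for most, and control replicate 2 is low in Npas4 but not in Egr2.

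Animals could be ordered by their median rank over the 8 members, where 1 is the lowest of the 19 animals. By CPM, ELS-HFD daughters had median ranks of 8 to 18 and ELS daughters of 4 to 16. HFD daughters had ranks of 1 (replicate 1) and 15 to 17 (the other 3), and control daughters of 4.5 to 11.5. The top animal depended on the scaling: ELS-HFD replicate 5 was at 18 and HFD replicate 2 at 17 by CPM, and at 15.5 and 18 with TMM-scaled totals. HFD replicate 1 had a median rank of 1 with either scaling. With TMM-scaled totals the ranks were 7.5 to 15.5 in ELS-HFD daughters, 3 to 16 in ELS daughters, 1 and 15.5 to 18 in HFD daughters, and 4.5 to 13 in control daughters.

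The levels were set beside 4 measures of the libraries: the total, the share of the 10 most abundant IDs, and the first and second principal components. Of 32 relations, 0 had an adjusted permutation p under 0.05 by r or by rho. The share of the 10 most abundant IDs, which was 25.8% in HFD replicate 1 and 9.0% to 16.7% in the others, had an r of -0.67 to -0.42 with the members. That range was -0.14 to 0.28 without HFD replicate 1. For the first component r ran from -0.65 to -0.32, and from -0.25 to 0.36 without that library. The library total had an r of -0.26 to 0.07 with the members. The second component had an r of -0.31 to 0.29, and of -0.62 to 0.26 without HFD replicate 1. The lowest value was that of Egr1, at -0.62 without that library. Over all 19 animals Egr1 had an r of -0.31 with that component (permutation p = 0.194, adjusted p = 0.366) and a rho of -0.59 (permutation p = 0.00881, adjusted p = 0.282).

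Outside the set, 14321 IDs with a mean of at least 1 CPM were ranked by their median r with the 8 members over the 19 animals, as a description with no test. The highest were ENSRNOG00000001030 and ENSRNOG00000019529, with a median r of 0.77 each, and 0.56 and 0.54 without HFD replicate 1. The lowest were ENSRNOG00000023935 at -0.73 and ENSRNOG00000018092 at -0.71, and -0.49 and -0.58 without it. All 10 highest IDs had their minimum in HFD replicate 1, and all 10 lowest had their maximum there. For comparison, the members' own median r with each other ran from 0.47 for Npas4 to 0.81 for Fos. Without HFD replicate 1 it ran from 0.11 for Egr1 to 0.65 for Arc. The highest median r of any tested ID outside the set was then 0.70, above that of every member.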

How the data were processed

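The authors deposited whole-number read counts per Ensembl gene ID for 19 libraries, with no normalization. Per the submitters' processing notes the build was Rnor_6.0; the sources used here do not give the aligner, annotation release or use of strand, so reads of overlapping genes may be mixed. Polyadenylated RNA was enriched, per the labels' protocols. Members and lists were chosen with earlier results of these data known. IDs passing edgeR's filterByExpr (15372) were tested with edgeR 4.0.16 in R 4.3.3 (TMM, quasi-likelihood, 1 fit over 4 groups, called at adjusted p under 0.05); limma 3.58.1 and DESeq2 1.42.0 were alternatives. A standard error is the log2 fold change divided by the square root of F. Correlations used log2(CPM + 1), CPM from column sums, and 100000 permutations (smallest p 1e-05). Simulated counts were used to try out HFD against control. There edgeR recovered 67% of 2-fold and 91% of 4-fold changes among 15220 IDs, with 11 of 169 calls false. The counts were drawn independently for each ID, with no outlying library like HFD replicate 1. No change under 2-fold was tried, and every member estimate with all 19 libraries was smaller than 2-fold. Recovery of changes of the members' size was therefore not measured. The reference tables pair 0 IDs with symbols, so the other gene lists and cell type markers were not used. All 8 members were named; of other IDs, the 2 at each end of the correlation ranking.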

Additional observations from a re-analysis of the deposited data

Results flagged for a closer look

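Within each group, each gene's highest or lowest animal was set against the rest with Dixon's criterion, on log2(CPM + 1). There were 32 groups of 4 or 5 animals, where chance alone marks about 1 in 20. It marked 6 values. The 32 sets come from the same animals and from genes that vary together, so they are not independent. The number marked is therefore a description and not a test against that rate. HFD replicate 1 was marked as low for 4 members: Fos at 9.86 CPM, Junb at 54.6 CPM, Npas4 at 3.90 CPM and Dusp1 at 17.2 CPM. The same library had the lowest TMM factor of the series, and what part of its composition these values share was not tested. Nr4a1 was marked as low in control replicate 5, at 42.5 CPM, and Dusp1 as high in ELS-HFD replicate 5, at 51.1 CPM. Both were close to the limit, with ratios of gap to range of 0.727 and 0.728 on the log scale against a critical 0.71.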

How the results depend on the processing

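No member was called under any of 1704 alternative values of 64 results. The number of IDs called, 0 in each edgeR comparison, was with DESeq2 5 in HFD against control, 1 in ELS against control, 146 in ELS-HFD against ELS, 3 in ELS-HFD against HFD, 329 for paternal HFD, 1 for paternal ELS and 5 for the interaction; an edgeR fit to the 2 groups alone called 3 in HFD against control. Leaving out 1 library gave 0 to 2405 in ELS-HFD against ELS (2405 without HFD replicate 1), 0 to 2 for paternal HFD, 0 to 1 for paternal ELS and 0 to 12 for the interaction (12 without ELS replicate 5). The members' median r of 0.68 was 0.54 by rho, 0.63 with TMM totals, 0.76 on deviations from group means, 0.48 without the 3 libraries highest on the first component, and 0.48 to 0.70 with 1 library left out; it was at least 0.67 with any library but HFD replicate 1 left out. Same-numbered animals of different groups did not pair (correlations of -0.436 to 0.57, above 0.1 in 9 of 27), and with the replicate block 0 IDs were called in each comparison. The signs of small differences were unstable, none over 0.24 in size with all libraries (log2); the cause was not tested. With column sums as library sizes the sign turned in HFD against control (Egr1 -0.03), ELS-HFD against HFD (Fos 0.0043), paternal ELS (Npas4 0.05, Dusp1 0.05), interaction (Nr4a1 0.04). Without the 3 libraries highest on the first component (HFD replicate 1, ELS-HFD replicates 2 and 3; chosen after seeing the data) the sign turned in HFD against control (Egr2 0.01), ELS-HFD against control (Egr2 0.12), ELS-HFD against HFD (Nr4a1 -0.12, Dusp1 -0.11), paternal HFD (Egr1 0.02), paternal ELS (Junb -0.03, Egr1 -0.06, Nr4a1 -0.01), interaction (Fos -0.03, Dusp1 -0.06). With the replicate block the sign turned in ELS-HFD against control (Egr2 0.03), ELS-HFD against HFD (Dusp1 -0.0061), interaction (Nr4a1 0.08). With limma-voom the sign turned in ELS-HFD against control (Egr2 0.0025), paternal ELS (Npas4 0.08), interaction (Nr4a1 0.04). With DESeq2's size factors in edgeR the sign turned in paternal ELS (Npas4 0.0058). With DESeq2 the sign turned in paternal ELS (Npas4 0.0051). With 1 library left out, values crossed 0 for HFD against control (Egr1 -0.09 to 0.18, Egr2 -0.42 to 0.02, Nr4a1 -0.04 to 0.26), ELS against control (Junb -0.23 to 0.03, Nr4a1 -0.01 to 0.16, Dusp1 -0.14 to 0.0031), ELS-HFD against control (Egr1 -0.10 to 0.01, Egr2 -0.24 to 0.18, Npas4 -0.02 to 0.38), ELS-HFD against ELS (Arc -0.16 to 0.07), ELS-HFD against HFD (Fos -0.25 to 0.04, Junb -0.00055 to 0.19, Egr1 -0.20 to 0.06, Egr2 -0.06 to 0.35, Nr4a1 -0.06 to 0.22, Dusp1 -0.14 to 0.12), paternal HFD (Egr1 -0.12 to 0.03), paternal ELS (Junb -0.06 to 0.07, Egr1 -0.04 to 0.09, Npas4 -0.13 to 0.07, Dusp1 -0.10 to 0.03), interaction (Fos -0.15 to 0.14, Nr4a1 -0.15 to 0.13, Dusp1 -0.09 to 0.17). Npas4 and Egr2, with as few as 38 and 48 counts in a library, are the least precise.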

Other observations

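The ratio of Npas4 to Egr2 counts, which needs no library total, was looked at after their opposite estimates in ELS daughters were seen. On the log2 scale it averaged -0.65 ± 0.62 in ELS-HFD daughters (n = 5), 0.29 ± 0.47 in ELS daughters (n = 5), 0.05 ± 0.34 in HFD daughters (n = 4) and -0.94 ± 1.21 in control daughters (n = 5), each ± SD. Control daughters spanned -2.45 to 0.55, which covered most of the range of the other groups. In HFD replicate 1 the ratio was 0.20, inside the range of the other HFD daughters (-0.24 to 0.45), although both genes were low there. The differences between groups in this ratio were not tested.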
